A study of Mus musculus with 3 samples.

Results

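Promoter H3K4me3 was compared in the mouse lung fibroblast line MLg between cells given TGFB1 for 4 h (TGFB1) and cells without it (Ctrl). Of the 3 libraries of the series, 2 entered the comparison, chosen by their treatment label. The third, TGFB1+miR-9-LOF, combined TGFB1 with an antagomiR against the microRNA miR-9 and is mentioned only beside single regions. By the study's methods, cells were transfected with a negative control antagomiR or one against miR-9, at 60 nM, and harvested at 24 h, Ctrl cells included. In the TGFB1 library, human recombinant TGFB1 at 5 ng/ml was present from 20 h after transfection until harvest. The Ctrl library is labelled WT, and the labels do not say for each library whether the negative control probe was present. Chromatin was precipitated with the antibody ab8580. MLg is a single line, each group was 1 library, and no difference below has a replicate check.

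H3K4me3 is the trimethylated form of lysine 4 of histone H3. It sits on the nucleosomes just downstream of active and poised promoters, where SET1 and MLL methyltransferase complexes deposit it and KDM5 demethylases remove it. Long domains are known from genes of cell identity and of high transcription. TGFB1 is a cytokine that binds a receptor pair of serine and threonine kinases, which phosphorylate SMAD2 and SMAD3. These join SMAD4 and enter the nucleus, and in fibroblasts the response includes matrix and contractile genes and inhibitors that limit the signal.

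The lists held 9116 peaks in TGFB1 and 8727 in Ctrl, of which 8669 and 8346 were promoter peaks, within 2 kb of a transcription start site (TSS). Merged across the series where they overlapped, the peaks formed 9316 regions, and 9312 of these had a TGFB1 or a Ctrl peak. Promoter regions with such a peak numbered 8846, of 8848 in all, and carried the names of 9086 genes. Region length was counted as the base pairs that a library's peaks covered. Each peak also had a score, a value of the authors that is not scaled between libraries, with medians of 89 in TGFB1 and 79 in Ctrl. No read counts came with the lists, so depth was unknown, and fewer reads or a weaker precipitation in a library cannot be told apart from less H3K4me3. The cell type label was checked by markers. Fibroblast markers had a promoter peak in 11 of 17 genes, among them Col1a1, Pdgfra and Prrx1. No peak was called in either library at any of 10 lung epithelium, 7 endothelium or 5 smooth muscle markers, and Cd14 and Syt1 were the only immune and neural markers with a peak.

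Promoter peaks were slightly longer in TGFB1 than in Ctrl, and the difference was spread over most promoters. Over the 8171 promoter regions that both libraries covered, the log2 ratio of TGFB1 over Ctrl had a median of 0.06 (95% interval 0.06 to 0.07), a median difference of 75 bp (70 to 81). In TGFB1, 64.3% of these regions were longer (63.3 to 65.4). Intervals are order-statistic for medians and Wilson for shares, and cover counting error only. At least 1.5 times longer in TGFB1 were 150 regions (1.84%), and at least 1.5 times shorter 22 (0.269%). Once ratios were centred on their median, 99 regions were longer and 40 shorter, so that the longer share of the called regions was 71.2%, against 87.2% without centring. At the limit, Samd4 just passed with 2259 bp in TGFB1 and 1506 bp in Ctrl, and Ctsc just missed it with 1636 bp in TGFB1 and 1091 bp in Ctrl.

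The added length lay on both sides of the TSS. Edges could be placed by the strand of the gene in 8096 regions with 1 peak in each library. The median upstream edge was at -484 bp in TGFB1 and -449 bp in Ctrl, and the median downstream edge at 1255 bp in TGFB1 and 1223 bp in Ctrl. Within a region, the upstream edge reached out by a median of 37 bp (32 to 42) and the downstream edge by 28 bp (25 to 32). Both edges lay further out in TGFB1 in 30.1% of regions and further in in 12.6%. The moves of the 2 edges were inversely related across regions, with Pearson's r of -0.25 and a Spearman coefficient of -0.26 (8096 regions of the same 2 libraries, given as a description). At 250 bp upstream of the TSS, 79.8% of regions were under a peak in TGFB1 and 74.8% in Ctrl. At 250 bp downstream, where nearly all regions were covered, the shares were 98.0% in TGFB1 and 97.4% in Ctrl.

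**Figure D1:**
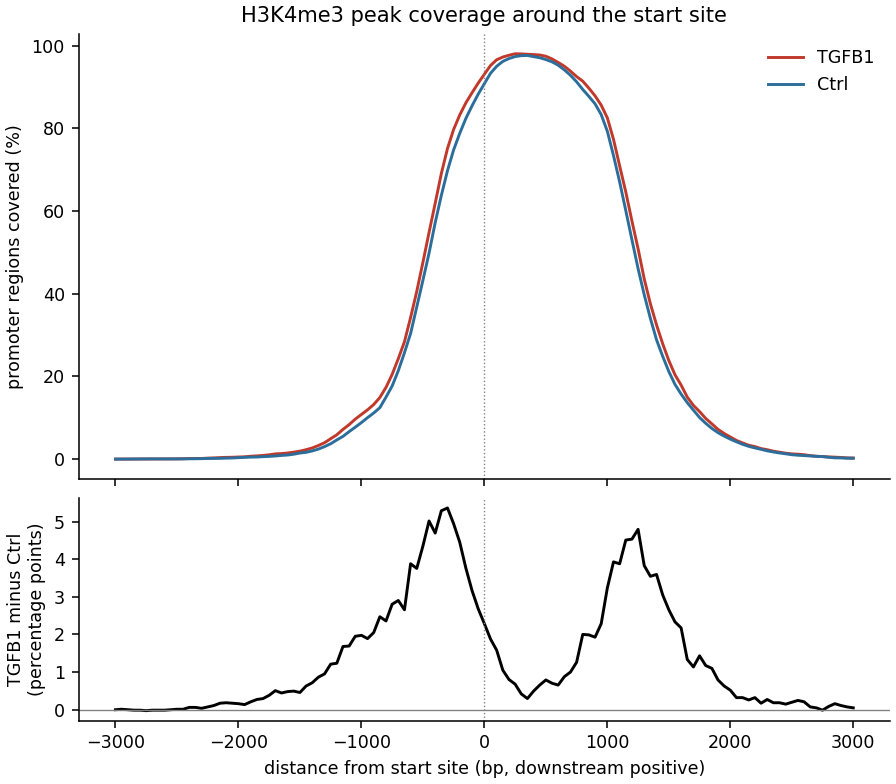
Share of the 8096 promoter regions under an H3K4me3 peak (upper plot, %) and the difference TGFB1 minus Ctrl (lower plot, percentage points), by distance from the TSS in bp. The TGFB1 line lies above the Ctrl line on both flanks, and the 2 lines nearly meet near the centre of the peaks.

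Sgk1, a serum and glucocorticoid regulated kinase and a known early target of TGFB1, had the largest increase in length. Its promoter was covered over 3504 bp in TGFB1 and 1142 bp in Ctrl (log2 ratio 1.62), and nearly all of the increase was downstream. The downstream edge stood 3610 bp from the TSS in TGFB1 and 1302 bp in Ctrl, while the upstream edges, at 107 bp in TGFB1 and 161 bp in Ctrl, differed by 54 bp. Its score was 46 in TGFB1 and 38 in Ctrl. Downstream growth also stood out at Fbxl12, which encodes a substrate receptor of an SCF ubiquitin ligase, with a downstream edge at 2861 bp in TGFB1 and 1373 bp in Ctrl. A promoter region of Mecom, the gene of the transcription factor EVI1, had a downstream edge at 2434 bp in TGFB1 and 1173 bp in Ctrl. Sp3, a zinc finger factor of GC boxes, had its downstream edge at 2316 bp in TGFB1 and 1070 bp in Ctrl. Foxd1, a forkhead factor of stromal progenitors, and the nuclear noncoding RNA Malat1 gained 1235 bp and 1222 bp on the downstream side. At Foxd1 the peak was also shifted, with its upstream edge at 497 bp in TGFB1 and 76 bp in Ctrl. Its length was 2175 bp in TGFB1 and 1361 bp in Ctrl, at low scores of 39 in TGFB1 and 41 in Ctrl.

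Other promoters grew on the upstream side of the gene whose strand was used to place the edges. Trp53, which encodes p53, shares a promoter region with Wrap53, a telomerase and Cajal body protein gene on the opposite strand. That region measured 3817 bp in TGFB1 and 1741 bp in Ctrl (log2 ratio 1.13), and its edge on the upstream side of Trp53 was at -2288 bp in TGFB1 and -210 bp in Ctrl. The other edge differed by 2 bp. The score of the region was 67 in TGFB1 and 94 in Ctrl, at percentiles of 27.9 in TGFB1 and 66.1 in Ctrl within their lists. Spred1, an inhibitor of RAS and MAP kinase signalling, had a Ctrl peak that began 1059 bp downstream of its TSS. In TGFB1 the peak began at -747 bp and so crossed the TSS, with 2992 bp in TGFB1 and 1430 bp in Ctrl (log2 ratio 1.07). Ubtf, the upstream binding factor of RNA polymerase I, was extended upstream by 1481 bp, Acaa1a, a peroxisomal thiolase, by 1457 bp and Gpbp1l1 by 1404 bp. At Irx5 and Crnde, a homeobox gene and its divergent noncoding RNA, a log2 ratio of 1.22 came from peaks that shared only 16 bp. The TGFB1 peak lay over the upstream side of Crnde (2339 bp) and the Ctrl peak over its downstream side (1007 bp).

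Among the remaining large increases was Zbtb1, a BTB zinc finger factor of lymphoid development, with 2592 bp in TGFB1 and 1133 bp in Ctrl. The region that Alg3, a mannosyltransferase of protein glycosylation, shares with Eef1akmt4-ece2 had 2705 bp in TGFB1 and 1288 bp in Ctrl. Maf, a bZIP factor, had 2582 bp in TGFB1 and 1230 bp in Ctrl. At Pcgf5, a subunit of Polycomb repressive complex 1, at Crem, a cAMP-responsive bZIP factor, and at Limk2, a kinase that phosphorylates cofilin, a second promoter region was covered in TGFB1 alone. Their summed lengths were 3765 bp in TGFB1 and 1592 bp in Ctrl for Pcgf5, 3209 bp in TGFB1 and 1421 bp in Ctrl for Crem, and 3181 bp in TGFB1 and 1493 bp in Ctrl for Limk2. Of the 172 genes called longer (2.04% of the 8443 genes with a peak in both), 13 had such an additional region. The regions that both libraries covered were within the limit at Pcgf5 (1933 bp in TGFB1 and 1592 bp in Ctrl) and at Limk2 (1669 bp in TGFB1 and 1493 bp in Ctrl).

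The 31 genes called shorter (0.367%) were led by Pml, which encodes the scaffold of PML nuclear bodies, with 1069 bp in TGFB1 and 2570 bp in Ctrl (log2 ratio -1.27). Its upstream edges differed by 26 bp, and its downstream edge was at 1161 bp in TGFB1 and 2688 bp in Ctrl. Dusp4, a phosphatase of nuclear MAP kinases, had a downstream edge at 1371 bp in TGFB1 and 2771 bp in Ctrl, and a length of 1707 bp in TGFB1 and 2961 bp in Ctrl. Bbip1, a subunit of the ciliary BBSome, shares its promoter with Shoc2, a scaffold of RAS and RAF signalling. It lost length on the upstream side of Bbip1 (1278 bp in TGFB1 and 2650 bp in Ctrl). The region of Naa50, an N-terminal acetyltransferase, and Atp6v1a, a subunit of the vacuolar proton pump, had 1117 bp in TGFB1 and 2606 bp in Ctrl. Med14, a Mediator subunit, had 1183 bp in TGFB1 and 2097 bp in Ctrl. Mier1, a corepressor subunit, was shorter (1516 bp in TGFB1 and 3008 bp in Ctrl) with 1 covered promoter region in TGFB1 and 2 in Ctrl. In all, 8 of the 31 had more covered regions in Ctrl.

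**Figure D2:**
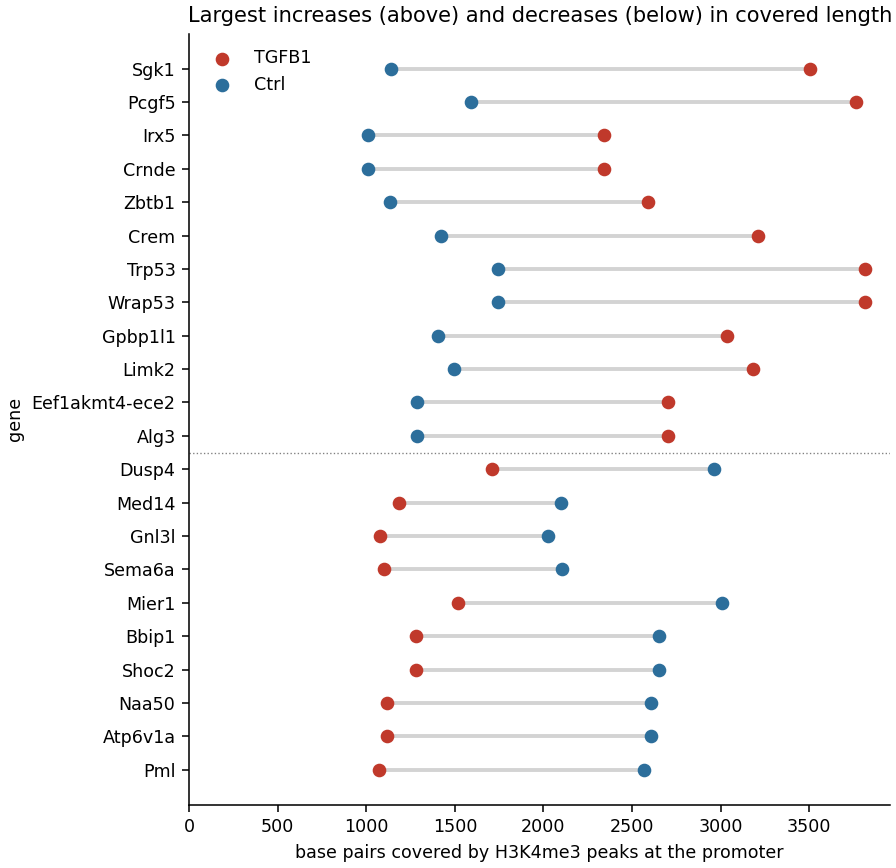
Base pairs covered by promoter peaks in TGFB1 (red) and Ctrl (blue) for the 12 genes with the largest and the 10 with the smallest log2 ratio, 1 library each. Sgk1 extends to 3504 bp in TGFB1 and Pml to 2570 bp in Ctrl. Plotted genes that share a region (Irx5 and Crnde, Trp53 and Wrap53, Alg3 and Eef1akmt4-ece2, Naa50 and Atp6v1a, Bbip1 and Shoc2) have equal values.

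Over the 147 regions called longer whose edges could be placed, 53 grew mostly upstream, 39 mostly downstream and 55 on both sides, where mostly means at least 75% of the added length. The 22 shorter regions were split 5 upstream, 10 downstream and 7 on both sides. Score was read beside length. Among the 150 longer regions, 75 had a lower score percentile within the list in TGFB1 than in Ctrl, and among all regions with a peak in both, 46.0% did.

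The large changes were concentrated in promoters of low score. In the quintile of regions with the lowest Ctrl score (25 to 56), 97 of 1637 regions were at least 1.5 times longer (5.93%, 4.88 to 7.18) and 14 shorter. In the quintile with the highest score (113 to 630), 1 of 1587 was longer (0.063%, 0.011 to 0.356) and 0 were shorter, which allows up to 0.189% of regions. The medians differed less. They were 0.11 (0.09 to 0.13) in the lowest quintile and between 0.05 and 0.06 in the other 4. The spread of the log2 ratio over regions narrowed with score, with a standard deviation of 0.30 in the lowest and 0.12 in the highest quintile. The longer regions had a median score of 58 in TGFB1 and 50.5 in Ctrl, against 95 in TGFB1 and 82 in Ctrl for regions within the limit. The quintiles were formed by the score in Ctrl, the library that is also the denominator of the ratio. Length and score were related among Ctrl promoter peaks (Spearman coefficient 0.51), so the grouping is not independent of the ratio. What part the low score has in these calls was not tested.

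**Figure D3:**
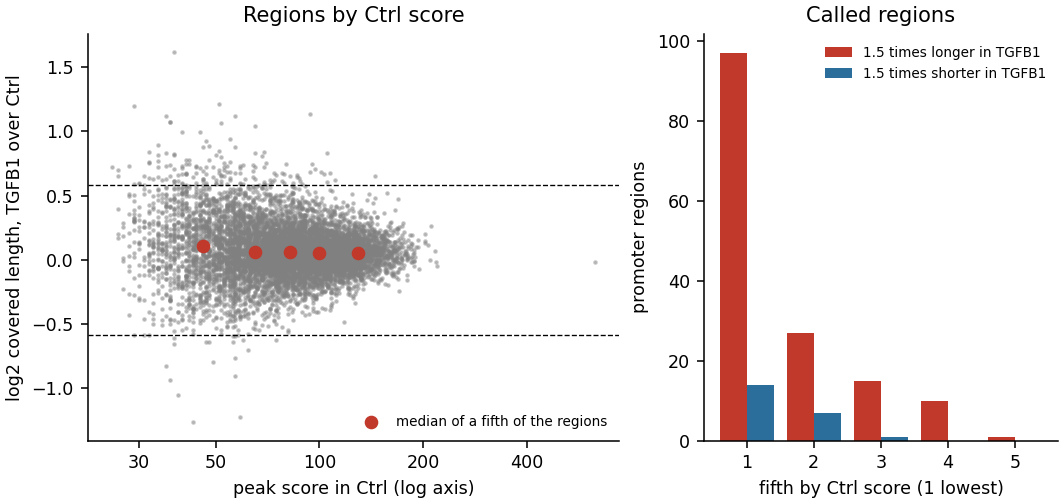
Left, log2 ratio of covered length (TGFB1 over Ctrl) of each of 8171 promoter regions against its Ctrl peak score on a log axis, with quintile medians in red and the 1.5-fold limits dashed. Right, number of regions at least 1.5 times longer and shorter in TGFB1 per score quintile. The cloud narrows to the right, and 97 of the 150 longer regions are in the lowest quintile.

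The promoters that changed length were searched for the letters of a G-quadruplex, a fold of guanine-rich DNA that the study examined at promoters. The motif is at least 4 runs of 3 or more G with loops of 1 to 7 bases, on either strand, in the 300 bases from 250 before the TSS to 50 after it. RefSeq starts of the build GRCm38.p6 (mm10) were found for 8808 of the 8846 regions. The motif was present in 46.7% of the longer regions (70 of 150, 38.9 to 54.6), 45.5% of the shorter (10 of 22, 26.9 to 65.3) and 30.5% of the regions within the limit (29.5 to 31.5). Regions with a peak in TGFB1 alone held it in 31.9% and those with a peak in Ctrl alone in 32.2%. Among all 32851 RefSeq promoters of that length the share was 18.6%. In the lowest score quintile, 51.5% of longer regions (41.7 to 61.2) and 35.3% of those within the limit (33.0 to 37.8) held it, and in the other quintiles together 37.7% (25.9 to 51.2) and 29.4% (28.3 to 30.5). Median GC content of the window was 63.8% in longer regions (61.7 to 66.3), 67.5% in shorter (59.3 to 71.0) and 62.7% in those within the limit (62.3 to 63.0). A match is a description of the letters and no evidence of a fold.

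Motifs upstream of the TSS are printed for 6 of the largest increases, taken by region, and for both leading decreases with a match. The printed motifs differ in run length and strand. Each is read along the gene, with the motif in capitals and up to 15 flanking bases in lower case. Runs of C are a motif on the other strand.
Zbtb1 (chr12:76370414-76370467, + strand): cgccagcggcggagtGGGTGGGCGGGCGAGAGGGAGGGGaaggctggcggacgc
Mecom (chr3:30509826-30509882, - strand): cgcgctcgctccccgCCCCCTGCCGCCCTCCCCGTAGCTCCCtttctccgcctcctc
Gpbp1l1 (chr4:116557468-116557518, + strand): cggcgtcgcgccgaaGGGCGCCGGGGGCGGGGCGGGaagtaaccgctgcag
Maf (chr8:115707026-115707088, - strand): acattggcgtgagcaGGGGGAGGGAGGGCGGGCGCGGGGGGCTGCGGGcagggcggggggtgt
Spred1 (chr2:117120949-117121010, + strand): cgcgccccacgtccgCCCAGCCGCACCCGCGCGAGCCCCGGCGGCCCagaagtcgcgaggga
Arhgef11 (chr3:87617431-87617490, + strand): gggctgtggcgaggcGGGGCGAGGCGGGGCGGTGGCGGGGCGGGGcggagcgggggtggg
Bbip1 (chr19:53944797-53944858, - strand): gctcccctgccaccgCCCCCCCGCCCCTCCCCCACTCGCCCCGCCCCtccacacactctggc
Pml (chr9:58249787-58249831, - strand): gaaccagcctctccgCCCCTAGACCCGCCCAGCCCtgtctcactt

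Only 250 bases before and 50 after the TSS were searched, so every motif lay near the start by design. Those printed ranged from -216 to -185 at Bbip1 to -30 to -11 at Pml, with -91 to -68 at Zbtb1 and -107 to -76 at Spred1. Set against the peak edges, the printed motifs fell in every arrangement. At Zbtb1, Gpbp1l1 and Maf the motif lay inside the peaks of both libraries, and at Mecom and Pml outside both. At Spred1 and Arhgef11 it lay inside the TGFB1 peak alone, and at Bbip1 inside the Ctrl peak alone. Letters of transcription factor sites were searched on both strands of the same windows. TGANTCA is the AP-1 site with any base allowed in the middle, and so a looser pattern than that site. It was in 2.00% of longer regions (3 of 150), in 3.72% of those within the limit and in 7.81% of all RefSeq promoters. TGACGTCA, bound by CREB and ATF factors, was in 2.00% of longer regions, 3.89% of those within the limit and 1.79% of all. GTCTAGAC, a SMAD palindrome, was in 0 of 150 longer regions, 0.188% of those within the limit and 0.213% of all. Among the 22 shorter regions, 2 held TGANTCA and 0 the others.

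Broad domains are peaks of 2.7 kb or more in the study's classes, a limit set at the third quartile of its own merged peaks. In the lists used here, that limit took only 2.08% of promoter peaks in TGFB1 and 1.57% in Ctrl. Most promoter regions broad in TGFB1 were not broad in Ctrl. By the widest peak, 185 promoter regions were broad in TGFB1 and 132 in Ctrl, and 70 were broad in both. Of those broad in TGFB1, 89 were medium (2 kb or more) and 26 narrow in Ctrl, and of those broad in Ctrl, 53 were medium and 9 narrow in TGFB1. The 26 included Sgk1, Trp53 and Wrap53, Spred1, and Itpripl2 (3352 bp in TGFB1 and 1862 bp in Ctrl). They also included Nfkbia, the inhibitor of NF-kappa-B (2704 bp in TGFB1 and 1835 bp in Ctrl), and Igf1r, the receptor of insulin-like growth factors (2835 bp in TGFB1 and 1960 bp in Ctrl), both chosen for mention after their values were seen. In 4 of the 26, a single TGFB1 peak lay over 2 Ctrl peaks. At Rdh10 and Rpl7 that peak measured 3530 bp, the wider Ctrl peak 1610 bp, and the covered length in Ctrl 2913 bp. The reverse held in 7 of the 9. At Btg1, an antiproliferative gene, the Ctrl peak of 3770 bp stood over 2 TGFB1 peaks, the wider 1642 bp, so that covered lengths were 2725 bp in TGFB1 and 3770 bp in Ctrl. At Slit2, the gene of a guidance cue for growing axons, the widest peak was 1654 bp in TGFB1 and 3171 bp in Ctrl, but the covered length was 3182 bp in TGFB1 and 3171 bp in Ctrl. At Slit2 the breadth class thus turned on a gap between peaks. In all, 7 promoter regions had 1 TGFB1 peak over 2 Ctrl peaks and 12 had the reverse.

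A peak in TGFB1 alone was found in 498 promoter regions (5.74% of 8669) and in Ctrl alone in 177 (2.12% of 8348). Lists of equal size bring both counts close to each other by construction, and with peaks of score 50 or more they were 923 and 315. That cutoff falls on unscaled scores, which were lower in Ctrl, so it need not act alike on both lists. With the 8000 peaks of highest score from each list, 516 regions had a peak in TGFB1 alone and 522 in Ctrl alone, whereas the median log2 ratio of length was 0.06 and 75 regions were longer against 11 shorter. Of the 498, 182 were in TGFB1 alone in the shortened lists as well, and of the 177, 92 were in Ctrl alone. The regions were short and of low score, with a median of 1236.5 bp and a score of 46 in TGFB1 for the first group and 1155 bp and a score of 43 in Ctrl for the second. A region without a called peak can still hold H3K4me3 below the calling limit.

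The strongest peaks of TGFB1 alone were at Gtpbp6, a mitochondrial GTP-binding protein gene (1679 bp, score 98), and Zdhhc9, a palmitoyltransferase of RAS (1331 bp, score 97). Next came Rnf128, a ubiquitin ligase (1306 bp, score 93), Smap1, a GTPase-activating protein of ARF6 (1445 bp, score 93), and Rpp38, a subunit of RNase P (1609 bp, score 88). Ldb1, an adaptor of LIM domain factors, and Tsc22d3, the glucocorticoid-induced leucine zipper, had 1750 bp and 1462 bp. A peak was also called in TGFB1+miR-9-LOF at Gtpbp6 (1068 bp), Rpp38 (1521 bp) and Ldb1 (1140 bp). That library had far fewer peaks (4959). It had one at 21 of the 498 regions in TGFB1 alone, at 6 of the 177 in Ctrl alone and at 4758 of the 7999 within the limit. The strongest of Ctrl alone was at Lemd3, an inner nuclear membrane protein that binds and restrains SMAD2 and SMAD3, with 2433 bp and a score of 96. TGFB1+miR-9-LOF had 1737 bp there. Fancc, a Fanconi anaemia DNA repair gene (1249 bp), Dnm1, a dynamin (1450 bp), and Tlr4, the receptor for bacterial lipopolysaccharide (1326 bp), followed.

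The X chromosome stood apart in both directions. In TGFB1 alone were 54 of its 241 promoter regions with a TGFB1 peak (22.4%, 17.6 to 28.1), against 444 of 8428 on the autosomes (5.27%, 4.81 to 5.77). In Ctrl alone were 13 of 200 (6.50%, 3.84 to 10.8) on the X, against 2.01% (1.73 to 2.34) on the autosomes. The genes on the X included Zdhhc9, Rnf128, Tsc22d3, the purine salvage enzyme Hprt (1324 bp), the actin crosslinker Flna (1141 bp) and the copper transporter Atp7a (1000 bp), the last chosen after its value was seen. Scores were low on the X as well, with medians of 56 in TGFB1 and 53 in Ctrl, against 92 in TGFB1 and 81 in Ctrl on the autosomes. Among regions with a TGFB1 score under 60, 34.8% (27.3 to 43.2, 135 regions) on the X and 24.9% (22.8 to 27.2, 1493 regions) on the autosomes had a peak in TGFB1 alone. Among those at 60 or more, 6.60% (3.24 to 13.0, 106 regions) and 1.04% (0.825 to 1.31, 6935 regions) did. With the 8000 highest scored peaks of each list, 34.0% of X regions with a TGFB1 peak were in TGFB1 alone and 32.6% of those with a Ctrl peak in Ctrl alone, against 6.18% and 6.30% on the autosomes.

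Chromosomes 18, 12, 16 and 4 followed the X in the share in TGFB1 alone, with 9.61%, 8.86%, 8.78% and 8.56%, and chromosome 10 had the lowest share at 2.73%. The same 4 also had the lowest median Ctrl scores of the autosomes (60 to 69). Over the 20 chromosomes, the share in TGFB1 alone and the median Ctrl score had a Spearman coefficient of -0.78 and a Pearson's r of -0.78, and without the X -0.74 and -0.85. These points share both libraries and are a description.

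**Figure D4:**
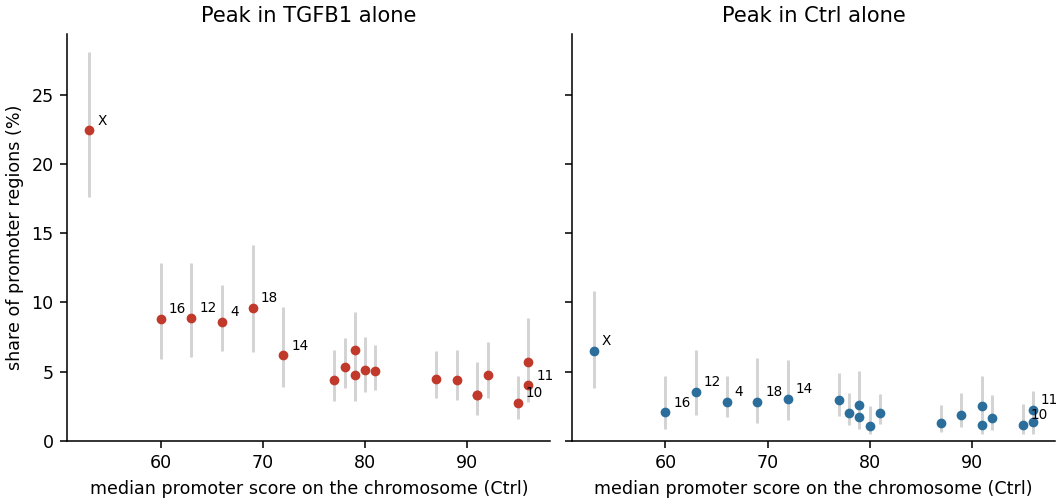
Share (%) of promoter regions with a peak in TGFB1 alone (left) and in Ctrl alone (right) per chromosome, against the median Ctrl score of its promoter regions, with 95% Wilson intervals. The X is the lowest in score and the highest in share in both plots (22.4% and 6.50%), and chromosomes 16, 12, 4 and 18 are next in score.

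Genes of the TGFB1 pathway were read against all genes, of which 64.3% were longer in TGFB1 by any amount, with a median log2 ratio of 0.06. Beside the 2.04% longer and 0.367% shorter, 5.38% of genes with a TGFB1 peak had it in TGFB1 alone and 1.89% of those with a Ctrl peak in Ctrl alone. The receptors had peaks in both libraries for 9 of 12 genes. Of these 8 were longer in TGFB1 by some amount, 0 by 1.5 times, with a median of 0.20 (0.02 to 0.35). Acvr1b, a type I activin receptor, had 1538 bp in TGFB1 and 1118 bp in Ctrl. Bmpr1a, a type I BMP receptor, had 2216 bp in TGFB1 and 1740 bp in Ctrl, and Tgfbr1, the type I receptor of TGFB1, 1959 bp in TGFB1 and 1551 bp in Ctrl. Acvr2a, a type II activin receptor, was the exception with 2035 bp in TGFB1 and 2520 bp in Ctrl. The receptor of type II for TGFB1 itself, Tgfbr2, differed little (1957 bp in TGFB1 and 1901 bp in Ctrl).

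Of the 5 ligand genes with a peak, 2 were longer and 3 shorter, with a median of -0.13. Tgfb1 had 2066 bp in TGFB1 and 2264 bp in Ctrl, Tgfb2 1941 bp in TGFB1 and 1596 bp in Ctrl, and Tgfb3 1528 bp in TGFB1 and 1913 bp in Ctrl. The SMADs had a median of 0.13 (-0.20 to 0.36) over 6 genes. Smad4, the common partner, had 1698 bp in TGFB1 and 1327 bp in Ctrl, and Smad6, an inhibitory SMAD, 2036 bp in TGFB1 and 2341 bp in Ctrl. Smad2 had a peak in TGFB1 alone (1446 bp, score 40) and Smurf1, a ubiquitin ligase for SMADs and receptors, in Ctrl alone (1111 bp, score 36), both at scores near the lower end of their lists. With Lemd3, Smurf1 made 2 of 16 ligase and cofactor genes with a peak in Ctrl alone. In that list Pmepa1, an inhibitor of SMAD signalling, had 2759 bp in TGFB1 and 2024 bp in Ctrl with scores of 34 in TGFB1 and 91 in Ctrl, and Tgif1, a SMAD corepressor, 2179 bp in TGFB1 and 1653 bp in Ctrl. Skil, which encodes the corepressor SnoN, had 1743 bp in TGFB1 and 1916 bp in Ctrl. Of the extracellular modulators, 7 of 10 were longer, the most Fstl1, a follistatin-related glycoprotein (1521 bp in TGFB1 and 1122 bp in Ctrl).

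The early targets of TGFB1 had the highest median of the 20 lists, 0.26 (0.08 to 0.35) over 26 genes. With peaks of score 50 or more, and likewise with the 8000 highest scored peaks of each list, it was 0.11 and 6 lists had a higher median, the receptors among them with 0.18. Of the 26 genes, 20 were longer, 3 by 1.5 times and 0 shorter by that much. Besides Sgk1 these were Zeb2, a zinc finger repressor of epithelial genes, with 3324 bp over 2 regions in TGFB1 and 1894 bp over 1 in Ctrl, and Sphk1, a sphingosine kinase, with 1669 bp in TGFB1 and 1008 bp in Ctrl. The region of Zeb2 that both libraries covered had 2206 bp in TGFB1 and 1894 bp in Ctrl, within the limit. Zeb1 was short of the limit with 1549 bp in TGFB1 and 1081 bp in Ctrl. Other epithelial-mesenchymal factors were within the limit, with 2508 bp in TGFB1 and 2566 bp in Ctrl at Snai1 and 2133 bp in TGFB1 and 2598 bp in Ctrl at Snai2. Id1, Klf10 and Lif were among the 6 that were not longer. Some early targets are also members of other lists, 4 of the fibroblast identity list and 3 of the ligase and cofactor list. Hes1 and Jag1 are also in the Notch list, Junb in the immediate early list, Cdkn1a in the growth arrest list and Wnt5a in the Wnt list.

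Of 22 matrix genes with a peak in both, 17 were longer, with a median of 0.09 (0.02 to 0.22). Col1a1, the alpha 1 chain of collagen I, was at the limit with 2665 bp in TGFB1 and 1775 bp in Ctrl, and Col1a2, its partner chain, had 1883 bp in TGFB1 and 1758 bp in Ctrl. Lox, the enzyme that crosslinks collagen, had a peak in TGFB1 alone (1209 bp, score 57). Of 28 contractile and cytoskeletal genes, 22 were longer, 3 of them by 1.5 times (Limk2, by its second region, Myl9 and Rock2), with a median of 0.10 (0.02 to 0.24). Myl9, a regulatory myosin light chain, had 1789 bp in TGFB1 and 1076 bp in Ctrl, and Rock2, a kinase upstream of LIMK2, 1849 bp in TGFB1 and 1126 bp in Ctrl. Acta2, the smooth muscle actin of myofibroblasts, was shorter by less than the limit, with 1655 bp in TGFB1 and 2069 bp in Ctrl.

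Among immediate early genes, 16 of 24 were longer and 0 passed the limit. Fosb had 2014 bp in TGFB1 and 1414 bp in Ctrl, Jun 1825 bp in TGFB1 and 2090 bp in Ctrl, and Atf3, a stress-induced bZIP factor, a peak in TGFB1 alone (1465 bp). The MAP kinase feedback genes went both ways, with 7 of 12 longer. Spred1 was longer and Dusp4 shorter, Dusp1 had 1795 bp in TGFB1 and 2384 bp in Ctrl, and Spry1, an inhibitor of receptor tyrosine kinase signalling, had a peak in TGFB1 alone (1101 bp, score 35). Of the fibroblast identity factors, 14 of 20 were longer. Foxf1, a forkhead factor of lung mesenchyme, had 1933 bp in TGFB1 and 1276 bp in Ctrl. Meis1 and Tcf4 had a peak in TGFB1 alone (2291 bp and 1444 bp).

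In the HOX clusters 4 of 10 genes with a TGFB1 peak had it in TGFB1 alone (Hoxa3, Hoxb4, Hoxb7 and Hoxc4, between 1207 bp and 1790 bp), against 5.38% of all genes. Hoxc13 had a peak in Ctrl alone (1292 bp). Hoxa4 was longer, with 1715 bp in TGFB1 and 1038 bp in Ctrl. The scores of the 4 were 30 to 62, and neighbouring HOX genes lie in the same cluster and are not independent. Of the Polycomb and H3K4 methylation genes, 20 of 27 were longer, 2 by 1.5 times. These were Pcgf5 and Pcgf2, which had 2182 bp in TGFB1 and 1094 bp in Ctrl. The median of 0.03 lay below that of all genes. Members of the MLL family went both ways, with 2735 bp in TGFB1 and 2002 bp in Ctrl at Kmt2e and 2682 bp in TGFB1 and 2831 bp in Ctrl at Kmt2d. So did H3K4 demethylases, with 1537 bp in TGFB1 and 1815 bp in Ctrl at Kdm5b and 1596 bp in TGFB1 and 1375 bp in Ctrl at Kdm1a.

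Wnt genes had a median of 0.14 over 18 genes, with Lzts2, a regulator of beta-catenin export, longer only through a second region covered in TGFB1 (2497 bp in TGFB1 and 1270 bp in Ctrl, against 1399 bp in TGFB1 and 1270 bp in Ctrl for the shared region) and Rnf43, a ligase for Frizzled receptors, with a peak in Ctrl alone (1371 bp). Notch genes had a median of 0.08, with Notch1 in TGFB1 alone (1418 bp, score 32), the ligand Dll1 in Ctrl alone (1028 bp, score 36) and Rbpj, the DNA-binding factor of the pathway, at 3430 bp in TGFB1 and 2485 bp in Ctrl. Of the Hippo genes 12 of 17 were longer by some amount and 0 by 1.5 times, and the kinase gene Stk4 had a peak in Ctrl alone (1173 bp). Growth arrest and p53 genes held Trp53 and Wrap53, which are 1 region, on the longer side and Pml on the shorter. Cdkn1a, the p21 inhibitor of cyclin-dependent kinases, had 2542 bp in TGFB1 and 2040 bp in Ctrl. The cell cycle list had a median of 0.01 (-0.06 to 0.05), with 13 of 23 genes longer. Ccnd1, the cyclin of G1 phase, had 2139 bp in TGFB1 and 2632 bp in Ctrl, and Myc 2314 bp in TGFB1 and 2771 bp in Ctrl. Housekeeping genes, as a comparison, had a median of 0.08 (0.01 to 0.17), close to that of all genes, and 17 of 23 were longer. The 5 genes of the study had a median of 0.21. All were longer by some amount, but only 1 by 1.5 times, Lzts2 through its second region. The study selected the 5 genes as putative targets of miR-9, and they are no independent sample of genes.

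**Figure D5:**
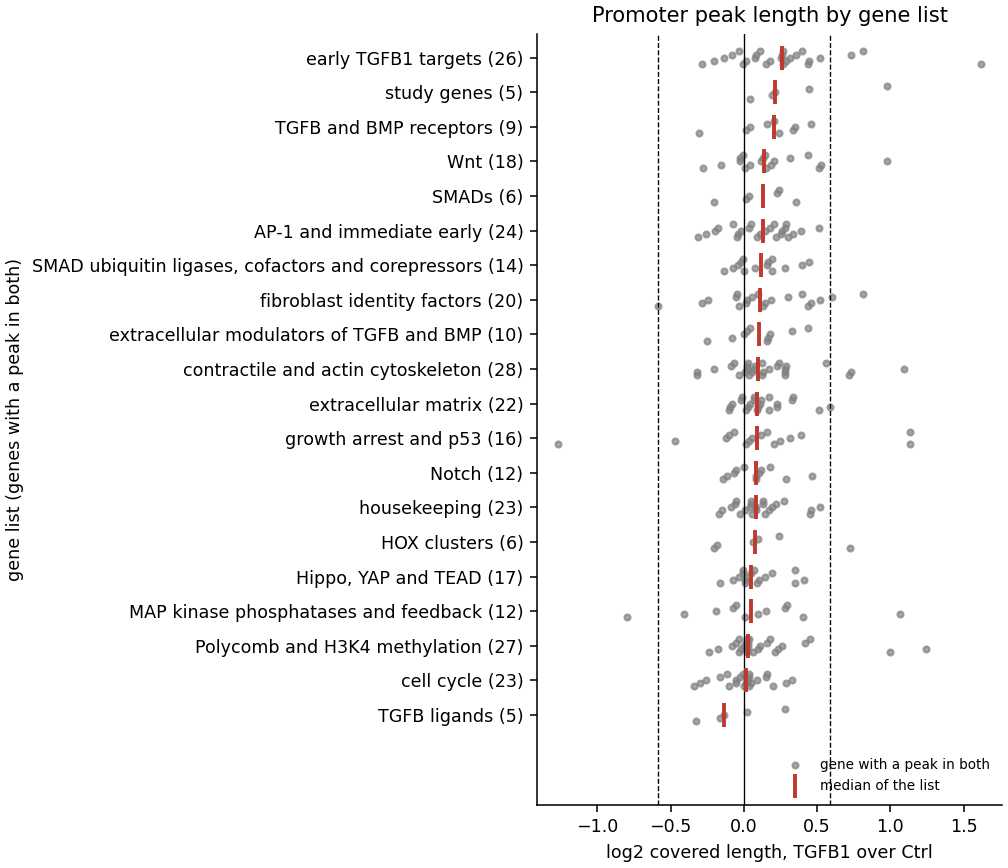
Log2 ratio of covered promoter length (TGFB1 over Ctrl) for genes with a peak in both libraries, by gene list, with the number of such genes in brackets, list medians in red and the 1.5-fold limits dashed. Medians run from -0.13 for TGFB ligands to 0.26 for early TGFB1 targets.

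Over 2 kb from any TSS lay 466 regions. Of these 341 had a peak in both libraries, 94 in TGFB1 alone (21.6% of 435, 18.0 to 25.7) and 31 in Ctrl alone (8.33% of 372, 5.93 to 11.6). Intergenic regions were in TGFB1 alone in 60 cases and in Ctrl alone in 22, and gene body regions in 34 and 9. With 8000 peaks from each list, which brings both counts close by construction, they were 40 and 34 intergenic and 20 and 19 in gene bodies. With peaks of score 50 or more they were 52 and 13 intergenic and 34 and 9 in gene bodies. The median log2 ratio of the shared regions was 0.03 (-0.00 to 0.05). The distal peak of highest score in TGFB1 alone lay just beyond the promoter limit, at -2.01 kb from the TSS of Glyctk, a glycerate kinase gene (1616 bp, score 81). Next was a peak at -20.4 kb from Slc45a4, a solute carrier gene (1460 bp, score 76). Among those of highest score in Ctrl alone was an intergenic peak at 15.9 kb from Btn1a1, a butyrophilin gene (1016 bp, score 71). Near Wnt11, a ligand of noncanonical Wnt signalling, an intergenic region at -19.7 kb from the TSS measured 2284 bp in TGFB1 and 1252 bp in Ctrl.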

How the data were processed

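H3K4me3 ChIP-seq was measured in MLg cells, with 1 library each for TGFB1, Ctrl and TGFB1+miR-9-LOF. The submitters' processing notes name Trimmomatic, Bowtie2, Picard (1.119), deepTools (3.5.1), MACS3, bedtools, HOMER and the build mm10. The study gives broad calling with an extension of 1000 bp for H3K4me3 in its CUT&Tag methods and its reporting summary. Removal of duplicates and blacklisted regions is stated for CUT&Tag, another assay. Use of an input control is not given in the sources used here. The authors deposited a peak list per library, annotated to the nearest TSS. The deposited peak score is the authors' own value. It was used within a list or beside a length, and as a common cutoff of 50 in 1 alternative. Since it is not scaled between libraries, that cutoff need not act alike on each list. The shortest peak was 1000 bp, so a region could not shrink below this without leaving the list.

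Lengths were computed as end minus start plus 1 (Python 3.11.15, pandas 2.3.3, SciPy 1.17.1). The 3 lists were merged by overlap of at least 1 bp, and lengths of a gene were summed over its promoter regions, so neighbours with a shared region share its value. Names come from the deposited nearest TSS. Strand and sequence were read from RefSeq for GRCm38.p6. With 1 library per group no p-value was computed, a difference is called at 1.5-fold, and regions are not replicates. The steps recovered known changes in lists simulated from the Ctrl list. That simulation held no difference in depth or peak calling between libraries, so it checks the code and says nothing on the calls themselves. Named were the largest changes, the highest scored gains and losses and the most changed genes of 20 lists, from the top of each, and some further list members were named for their role after their values were seen. Some genes that this rule takes are left out of the text. The members, lists and tests were chosen with earlier results of these data known. Alternatives were a score of 50 or more, 8000 peaks per list, a 1 kb promoter window, merging without the third list, an overlap of 50%, centring, fold limits of 5:4 and 2, other breadth limits, other gene assignments and strand from the deposited distances.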

Additional observations from a re-analysis of the deposited data

How the results depend on the processing

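No paired analysis was possible because each group had 1 library. Read depth was unknown, and its part in the calls was not tested. The median log2 ratio of promoter length was 0.06 with scores of 50 or more (0.057 against 0.062), and stayed inside its interval under the other alternatives run. With scores of 50 or more, 65 promoter regions were longer, 10 shorter, 923 in TGFB1 alone and 315 in Ctrl alone, and members of the gene lists numbered 8 longer, 0 shorter, 32 in TGFB1 alone and 14 in Ctrl alone. Intergenic regions in Ctrl alone were then 13. With 8000 peaks per list, 75 regions were longer, 11 shorter and 522 in Ctrl alone, list members were 7 longer, 1 shorter and 21 in Ctrl alone, and distal regions were 34 intergenic in Ctrl alone, 20 in gene bodies in TGFB1 alone and 19 in Ctrl alone. Centring gave 99 longer and 40 shorter. A limit of 5:4 gave 843 and 239, and a limit of 2-fold gave 10 and 3. The broad share of promoter peaks was 1.67% in TGFB1 and 1.22% in Ctrl with a 1 kb window, and 18.4% and 14.6% with broad at the third quartile of merged regions (2086 bp), against 2.08% and 1.57%. Centring put 4 list medians below 0. They were -0.035 for Polycomb and H3K4 methylation (against 0.027), -0.012 for MAP kinase feedback (0.050), -0.011 for Hippo (0.051) and -0.050 for the cell cycle (0.012), so that 15 of 20 medians were above 0, against 19. The median of the early targets was 0.11 with scores of 50 or more and with 8000 peaks per list, against 0.26. By the widest single peak, 11 list members were longer, against 15. Without the X chromosome, an alternative chosen after seeing the data, 136 regions were longer, 20 shorter, 444 in TGFB1 alone and 164 in Ctrl alone. The cause of these shifts was not tested.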

Other observations

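Promoter regions named for noncoding RNA genes had a peak in TGFB1 alone in 8.07% of 285 regions (5.44 to 11.8), against 5.66% of 8320 regions of protein-coding genes (5.18 to 6.18), and the 2 intervals overlap. Among regions with 2 TGFB1 peaks over 1 Ctrl peak, Erf, an ETS repressor downstream of MAP kinases, had the largest log2 ratio of covered length, 0.71, with 2843 bp in TGFB1 and 1736 bp in Ctrl. At Ptgs2, which encodes the prostaglandin synthase COX-2, 1 TGFB1 peak of 2233 bp lay over 2 Ctrl peaks that covered 2444 bp, so that a fused peak was not a longer one. Rbm10, an RNA-binding protein gene on the X chromosome, had 1892 bp in TGFB1 and 1950 bp in Ctrl, and its peak lay further downstream in TGFB1. Its edges were at -19 and 1872 bp in TGFB1 and at -923 and 1026 bp in Ctrl.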
